A study of Mus musculus with 20 samples.

Results

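The printed glycan array carried 20 compounds, of 419 in all, in which N-acetylneuraminic acid (Neu5Ac) stands alone on its spacer, is linked in the beta configuration, or is part of an α2-8-linked chain. The rule that picked them uses structure only: a listed structure with Neu5Ac, without sulfate, fucose or N-glycolylneuraminic acid (Neu5Gc), and either with an α2-8 bond or without the common α2-3 and α2-6 bonds. It was set with earlier results of these data known. By class, 5 were sialic acid monosaccharides, 8 were β2-6-linked sialosides, 4 were short chains of sialic acid and 3 were the sugar parts of the gangliosides GD3 and GD2. By the configuration of the sialic acid bound to the spacer or to the next sugar, 12 were beta and 8 were alpha.

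Sialic acids are acidic sugars that cap the glycans of vertebrate cells and serve there as ligands of Siglecs and selectins and as receptors of viruses. In those glycans Neu5Ac is joined in the alpha configuration, whereas the beta form is found in free sialic acid and in CMP-Neu5Ac, the activated donor from which sialyltransferases build the alpha bond. Chains of α2-8-linked sialic acid occur on the neural cell adhesion molecule, in the gangliosides GD3 and GD2 of nervous tissue and some tumors, and on the capsule of certain bacteria.

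Sera came from inbred BALB/c mice of 10 weeks, kept free of specific pathogens in separated cages and labelled as 13 females and 7 males, each a separate animal. The labels give no transgene or treatment, and sex is the only group. Each serum was diluted 1:15 and placed on 1 array, and bound IgG and IgM were detected together with a biotin-labelled goat antibody and streptavidin-Cy5, so that the 2 isotypes cannot be told apart. The purpose was to describe the natural antibodies against glycans of these mice, that is, antibodies present without immunization.

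The value of a compound in a mouse, in relative fluorescence units (RFU), is the median over its 6 spots. A compound is called bound at 4000 RFU or more, the limit used in the study. Arrays labelled as mice 44 and 45, both female, held the same intensity in 2664 of 2664 spots and were counted as 1 sample under the number 44, which leaves 19 mice, 12 females and 7 males. Mice are called by the number in their label, given with the strain where it has 3 digits (BALB/c-106). Arrays differed in overall level, with medians over all compounds from 126 to 1504 RFU and spots of printing buffer from 93.5 to 2044 RFU. They also fell into 2 sets by the signal ratio of a pair of printed peptides, with 9 arrays (7 females, 2 males) at ratios of 0.631 to 1.86 and 10 arrays (5 females, 5 males) at 0.0109 to 0.0561. The first set was the dimmer, with array medians of 126 to 411 RFU against 603 to 1504 RFU, and its part in the differences between mice was not tested beyond the values within each set given at the results.

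Of the 20 compounds, 12 were bound in at least 1 mouse, beside 54.9% of all 419 compounds. Bound compounds were mostly beta-linked: 11 of the 12 beta compounds and 1 of the 8 alpha compounds reached 4000 RFU somewhere. Of the 380 readings, 36 were at that level, 21 of them with all 6 spots at or above 4000 RFU. These 36 lay in 9 of the 19 mice. Per array, 0 to 10 of the 20 compounds were bound, beside 5.73 to 21.5% of all 419 compounds. Medians over mice were low throughout, from 186 RFU for the α2-8 disialic acid to 1654 RFU for Galα1-3(Neu5Acβ2-6)GalNAcβ, with a median of these medians of 548 RFU beside 636 RFU over all compounds. Printing density and spacer can change the signal of a compound, so that levels of different compounds are compared here only as they stand on these arrays.

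**Figure D1:**
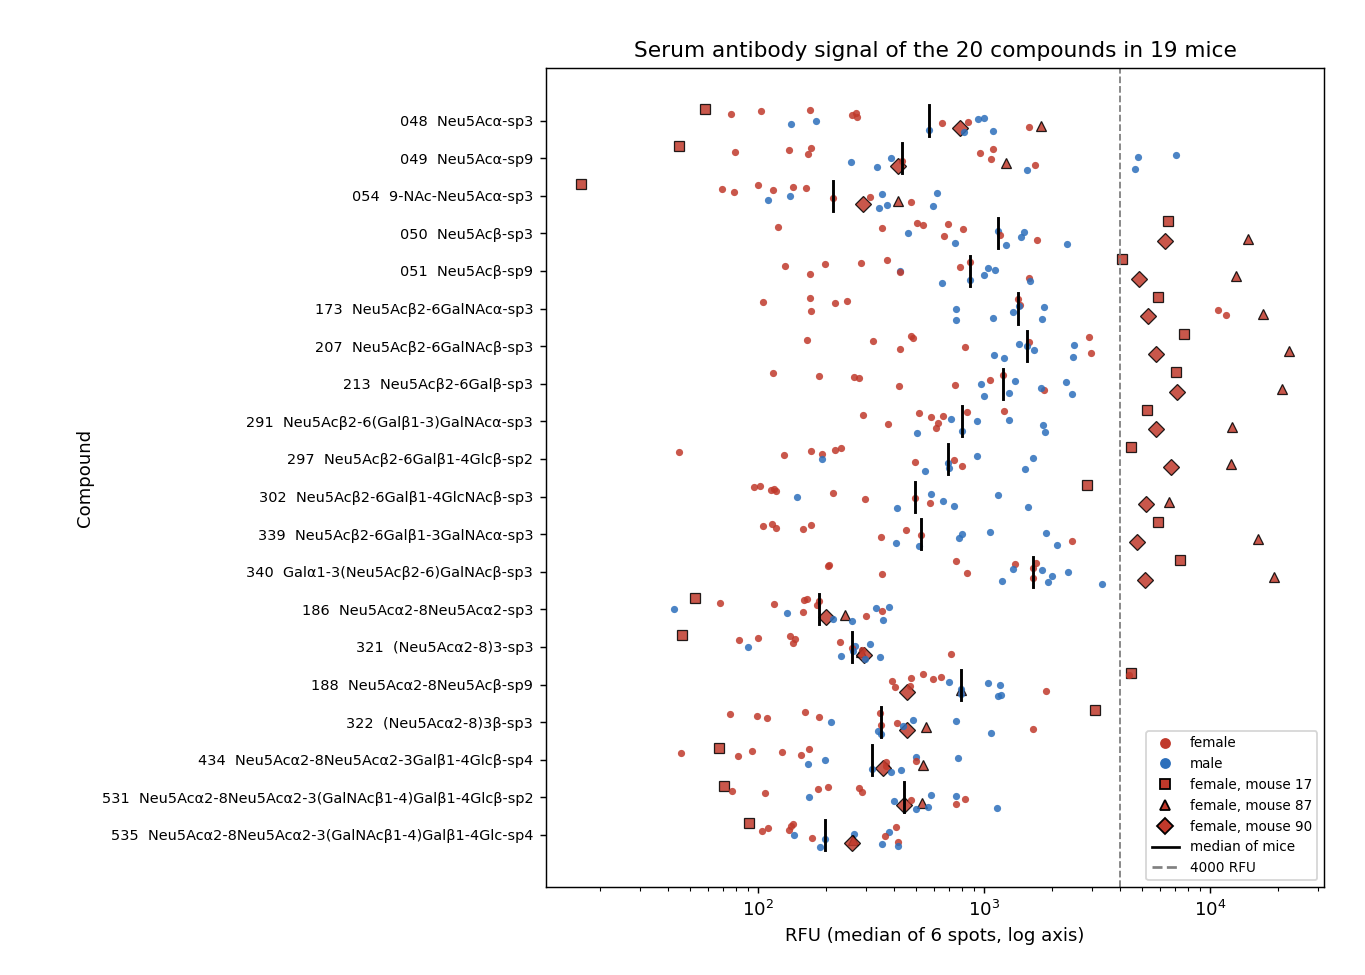
RFU of each of the 20 compounds (rows, log axis) in 19 mice, with females in red, males in blue, the median over mice as a black bar and 4000 RFU as a dashed line. In the beta compounds without an α2-8 bond, females 17, 87 and 90 (outlined marks) sit to the right of nearly all other mice, and among the alpha compounds only 3 males on Neu5Acα-sp9 pass the line.

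The beta monosaccharide Neu5Acβ on spacer sp3 (compound 050) was strongly bound by a few females and dim in the other mice. It ran from 122 RFU in mouse 38 over a median of 750 RFU to 14778 RFU in mouse 87 in the 12 females, and from 459 over 1253 to 2324 RFU in the 7 males. Females 87, 17 and 90 bound it, at 14778, 6525 and 6355 RFU, and the next mouse, male BALB/c-106, was at 2324 RFU. On spacer sp9 (compound 051) the same 3 females were the ones that bound Neu5Acβ, at 13014 RFU in mouse 87, 4829 RFU in mouse 90 and 4099 RFU in mouse 17. The next value, again that of male BALB/c-106, was 1600 RFU. The sexes overlapped for both, and none of the other 9 females exceeded the brightest male.

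The highest signals of the 20 compounds were those of mouse 87 on β2-6 sialosides, and mice 17 and 90 bound most of these too. Neu5Acβ2-6GalNAcβ (compound 207) was at 165 RFU in the lowest female, 1200 RFU in the median female and 22312 RFU in female 87, followed by 7654 RFU in mouse 17 and 5793 RFU in mouse 90. Neu5Acβ2-6Galβ (compound 213) reached 20806 RFU in mouse 87, 7176 RFU in mouse 90 and 7049 RFU in mouse 17. Galα1-3(Neu5Acβ2-6)GalNAcβ (compound 340), in which a galactose sits beside the sialic acid, reached 19113, 5140 and 7393 RFU in mice 87, 90 and 17. For these 3 sialosides no male passed 3323 RFU, the value of male BALB/c-107 on compound 340.

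Sialosides with a longer acceptor were bound by the same animals. Neu5Acβ2-6Galβ1-3GalNAcα (compound 339) was at 16342, 4772 and 5915 RFU in mice 87, 90 and 17, and its branched isomer Neu5Acβ2-6(Galβ1-3)GalNAcα (compound 291) at 12570, 5752 and 5244 RFU. On lactose, Neu5Acβ2-6Galβ1-4Glcβ (compound 297) gave 12374, 6752 and 4474 RFU. On N-acetyllactosamine, Neu5Acβ2-6Galβ1-4GlcNAcβ (compound 302) gave 6559, 5199 and 2865 RFU, the lowest of the 10 beta compounds without an α2-8 bond in mice 87 and 17, so that mouse 17 stayed under the limit. Each of the 7 β2-6 sialosides other than compound 173 was thus bound in 2 or 3 of 19 mice. For 3 of 19 the share is 15.8%, with an exact 95% binomial interval of 3.38 to 39.6% that covers counting error only.

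Over the 10 beta compounds without an α2-8 bond, mouse 87 ranged from 6559 to 22312 RFU with a median of 15560, mouse 90 from 4772 to 7176 with a median of 5538, and mouse 17 from 2865 to 7654 with a median of 5909. All 10 were bound in mice 87 and 90, and 9 in mouse 17, where 19.1%, 16.7% and 8.59% of all compounds were bound. The 8 alpha compounds had medians of 474, 326 and 55.2 RFU in the same mice. None of the other 16 mice exceeded 4000 RFU on more than 1 of the 10. These mice were on arrays of both sets, mouse 17 in the dimmer and mice 87 and 90 in the brighter.

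β-SiaTn, Neu5Acβ2-6GalNAcα (compound 173), is the beta counterpart of the tumor antigen sialyl-Tn and was the most often bound of the 20, in 5 of 19 mice (26.3%, exact 95% interval 9.15 to 51.2%). Females 87, 88, 65, 17 and 90 were at 17124, 11766, 10899, 5904 and 5324 RFU, the median of the 12 females was 1434 RFU, and males ran from 748 to 1836 RFU. Mice 88 and 65 bound no other of the 20. Their profile over related glycans differed: mouse 65 was at 61306 RFU on SiaTn itself (compound 172), at 6954 RFU on its GalNAcβ analog (compound 205), at 9237 RFU on the unsialylated Tn sugar GalNAcα (compound 005) and at 8827 RFU on the Neu5Gcβ analog (compound 175). Mouse 88 was at 7629 RFU on the Neu5Gcβ analog and at 326 RFU on SiaTn. Of the 114 spots of SiaTn, 6 held saturated pixels, against 2 of the 2280 spots of the 20 compounds.

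**Figure D2:**
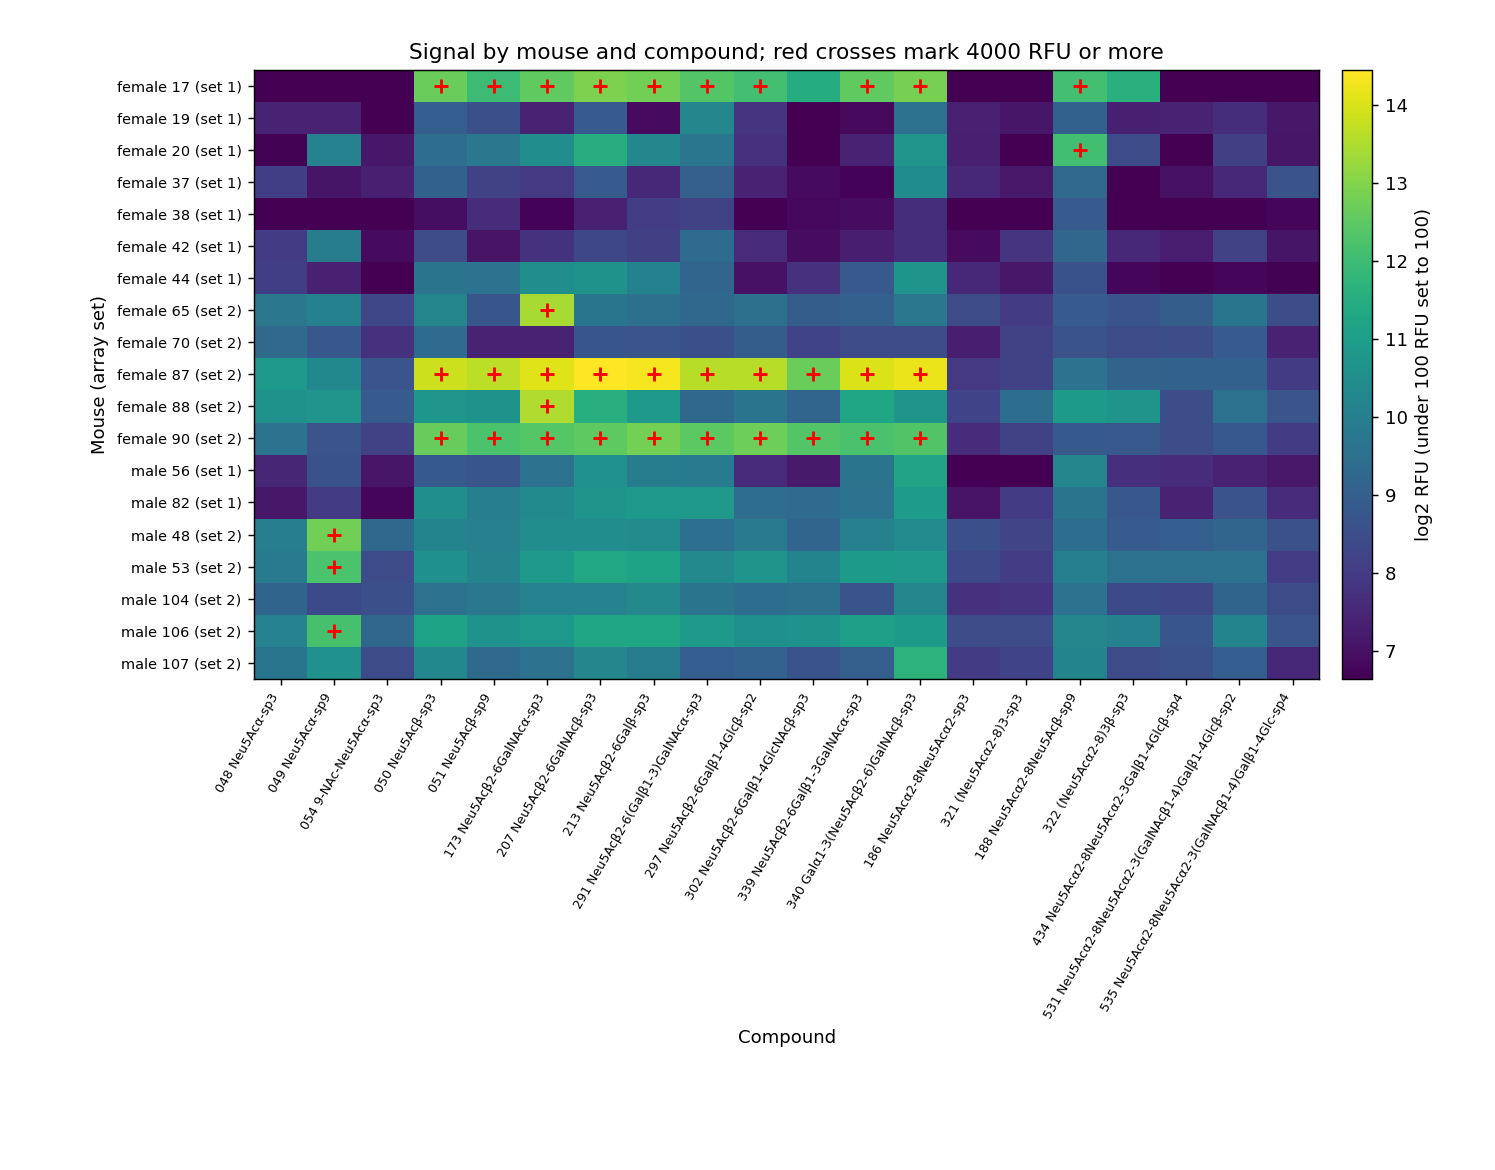
Signal (log2 RFU, colour scale) of the 20 compounds (columns) in each of 19 mice (rows), ordered by sex and array set (set 1 is the dimmer), with a red cross at 4000 RFU or more. Crosses form 3 near-complete rows over the beta compounds for females 17, 87 and 90, with further crosses on compound 188 for females 17 and 20, on compound 173 for females 65 and 88, and single crosses on compound 049 for males 48, 53 and BALB/c-106.

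Among the alpha compounds, only Neu5Acα on spacer sp9 (compound 049) was bound, and by males. Males 48, 53 and BALB/c-106 were at 7083, 4788 and 4654 RFU, with 6, 4 and 3 of 6 spots at 4000 RFU or more, and the 7 males had a median of 1553 RFU. The 12 females ran from 44.5 RFU over a median of 424 RFU to 1682 RFU in mouse 88. All 3 of these arrays belong to the brighter set. After quantile normalization between arrays, compound 049 reached 4000 RFU in 0 mice. The same sugar on spacer sp3 (compound 048) stayed between 58 and 1780 RFU, and its 9-N-acetylated form 9-NAc-Neu5Acα (compound 054) between 16.5 and 620 RFU.

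The α2-8 chains were dim where the innermost sialic acid was alpha. Disialic acid (compound 186) had a median of 186 RFU and a highest value of 378 RFU, in male 48, and trisialic acid (compound 321) a median of 261 RFU and a highest value of 712 RFU, in female 88. For 0 of 19 mice, the exact upper limit of the share is 17.6%.

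With a beta sialic acid at the spacer the chains were brighter in some mice. Neu5Acα2-8Neu5Acβ (compound 188) was at 4456 RFU in female 17 and at 4386 RFU in female 20, at 1889 RFU in female 88, and no male passed 1189 RFU. Those 2 readings are uneven, since the 6 spots ran from 16 to 6296 RFU in mouse 17 and from 5 to 7264 RFU in mouse 20, and with the mean of the spots in place of the median compound 188 was bound in 0 mice. The beta trimer (compound 322) came to 3090 RFU in mouse 17 and 1644 RFU in mouse 88 and had a median of 350 RFU. Mice 87 and 90, which bound all 10 beta compounds without an α2-8 bond, were at 792 and 458 RFU on compound 188. On compound 322 they were at 556 and 456 RFU.

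The sugars of the gangliosides GD3 and GD2, which both end in an α2-8 disialic acid, were bound in 0 mice. GD3 (compound 434) ran from 45.5 to 768 RFU with a median of 320 RFU. GD2 was printed on 2 spacers, with a range of 70.5 to 1143 RFU and a median of 442 RFU on sp2 (compound 531) and a range of 91.5 to 414 RFU and a median of 197 RFU on sp4 (compound 535).

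Against the buffer spots of the same array, 8 of the 20 compounds were brighter and 5 dimmer by limma at an adjusted p under 0.05, beside 42.5% and 18.9% of all 419 compounds. All 8 were beta compounds, and all 5 dimmer ones were alpha. With the mean of the spots in place of the median, for compounds and buffer alike, 0 of the 20 were brighter and 18 dimmer. Over all 419 compounds, 21 were then brighter and 331 dimmer. The differences of the 8 all turned negative, from -0.78 for compound 340 to -1.73 for compound 051, so the values that follow hold for medians only. Galα1-3(Neu5Acβ2-6)GalNAcβ exceeded buffer 3.43-fold (log2 difference 1.78, 95% interval 0.99 to 2.57, limma adjusted p = 0.000305, higher in 17 of 19 mice), and Neu5Acβ2-6GalNAcβ 3.30-fold (log2 difference 1.72, 0.92 to 2.52, adjusted p = 0.000489, higher in 18 of 19 mice). Disialic acid was 2.32-fold dimmer than buffer (log2 difference -1.21, interval -1.59 to -0.83, adjusted p = 4.36e-06, lower in 18 of 19 mice). With the negative control trehalose-ethanolamine as the reference, 12 of the 20 were brighter and 0 dimmer. Over the 418 compounds tested, 285 were brighter and 0 dimmer, so the dimmer signal is relative to buffer only. The call of Neu5Acβ-sp9 (log2 difference 0.87, adjusted p = 0.043) was lost, at adjusted p of 0.0501 to 0.0906 and differences of 0.62 to 0.89, without any 1 of mice 17, 19, 20, 38, 44, 56, 82, 87, 88 and 90. That of compound 188 (0.95, adjusted p = 0.0319) was lost, at 0.051 to 0.0659 and differences of 0.70 to 0.89, without mouse 17, 20, 38 or 56, whereas compound 322 (-0.25, adjusted p = 0.506) became dimmer than buffer without mouse 17 (-0.54, adjusted p = 0.0346).

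Pairs of compounds that differ by a named change in structure were compared within mice, on the same array and at the same serum dilution. The pairs were chosen with earlier results of these data known. For 36 pairs the mean difference in log2 RFU was tested with 100000 sign flips (two-sided permutation test), with p-values adjusted over the 36 pairs. The difference passed an adjusted p of 0.05 in 20 pairs.

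The mean difference favoured the beta compound over its alpha anomer in 9 of 10 pairs, and in 7 it passed the threshold. It was largest on GalNAcβ, where the beta compound (207) was 5.35-fold brighter than the alpha compound (205), with a log2 difference of 2.42 (95% interval 1.39 to 3.43, permutation test, adjusted p = 0.000576), and brighter in 18 of 19 mice. On GalNAcα (173 against 172) it was 4.96-fold (2.31, interval 1.21 to 3.41, adjusted p = 0.00134, 16 of 19 mice), and mouse 65 had the opposite order, with 10899 RFU on the beta and 61306 RFU on the alpha compound. On the branched core Neu5Ac2-6(Galβ1-3)GalNAcα (291 against 289) it was 4.36-fold (2.13, interval 1.38 to 2.88, adjusted p = 0.00018, 19 of 19 mice). With signals below buffer raised to the buffer level, these 3 differences were smaller, at 1.53, 1.29 and 1.33 (adjusted p = 0.0139, 0.0211 and 0.00151), and with log2(RFU + 500) they were 1.38, 1.30 and 1.13.

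For the linear Neu5Ac2-6Galβ1-3GalNAcα (339 against 338) the beta compound was 2.99-fold brighter (1.58, interval 0.75 to 2.42, adjusted p = 0.000576), for the monosaccharide on sp3 (050 against 048) 2.78-fold (1.48, interval 0.77 to 2.22, adjusted p = 0.00018, 19 of 19 mice) and on lactose (297 against 295) 2.54-fold (1.34, interval 0.58 to 2.14, adjusted p = 0.000576). Raised to buffer, these were 0.95, 1.13 and 0.76 (adjusted p = 0.00151, 0.00054 and 0.0283), and with log2(RFU + 500) 0.93, 0.87 and 0.81. In the trisialic acids (322 against 321) it was 1.78-fold (0.83, interval 0.33 to 1.40, adjusted p = 0.00235). In that last pair both compounds were at or below buffer in 14 of 19 mice, and with such signals raised to the buffer level the difference fell to 0.38 (adjusted p = 0.105).

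The other 3 anomer pairs did not pass the threshold, and their intervals were wide. For the monosaccharide on sp9 (051 against 049) the difference was 0.39 (interval -0.69 to 1.49), for Galβ (213 against 170) 1.15 (-0.24 to 2.54), and for N-acetyllactosamine (302 against 300) -0.37 (-1.62 to 0.88), with the beta compound brighter in 10, 14 and 8 of 19 mice. None passed with any 1 mouse left out (permutation test, smallest adjusted p = 0.346, 0.0538 and 0.323). The last stayed negative whichever mouse was left out, at -0.66 to -0.08. Within the brighter array set the 3 differences were -0.21, 0.62 and 0.69, and within the dimmer set 1.07, 1.75 and -1.55. None of these passed (permutation test, smallest adjusted p = 0.2). High alpha values were 7083, 4788 and 4654 RFU in males 48, 53 and BALB/c-106 on compound 049. On compound 170 males BALB/c-106 and BALB/c-104 were at 46981 and 23808 RFU, and on compound 300 female 42 was at 5987 RFU. None of these mice was 17, 87 or 90. In mouse 87 the beta compound of these pairs was 10.4-, 18.5- and 12.5-fold brighter than the alpha one. The folds were 11.6, 12.6 and 2.63 in mouse 90 and 92.1, 114 and 76.4 in mouse 17. In mouse 17 they rest on alpha readings of 44.5, 62 and 37.5 RFU, below the 93.5 RFU of buffer on that array. Such low readings were raised before log2 was taken for the tests, so the tested folds of mouse 17 were smaller.

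Within the brighter set of arrays 7 of the 10 anomer pairs passed with the beta compound brighter, and within the dimmer set 4, those on GalNAcα, on GalNAcβ, on the branched core and on the sp3 monosaccharide. The difference was positive in 9 of 10 pairs in each set. The negative pair was 051 against 049 in the brighter set and 302 against 300 in the dimmer.

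**Figure D3:**
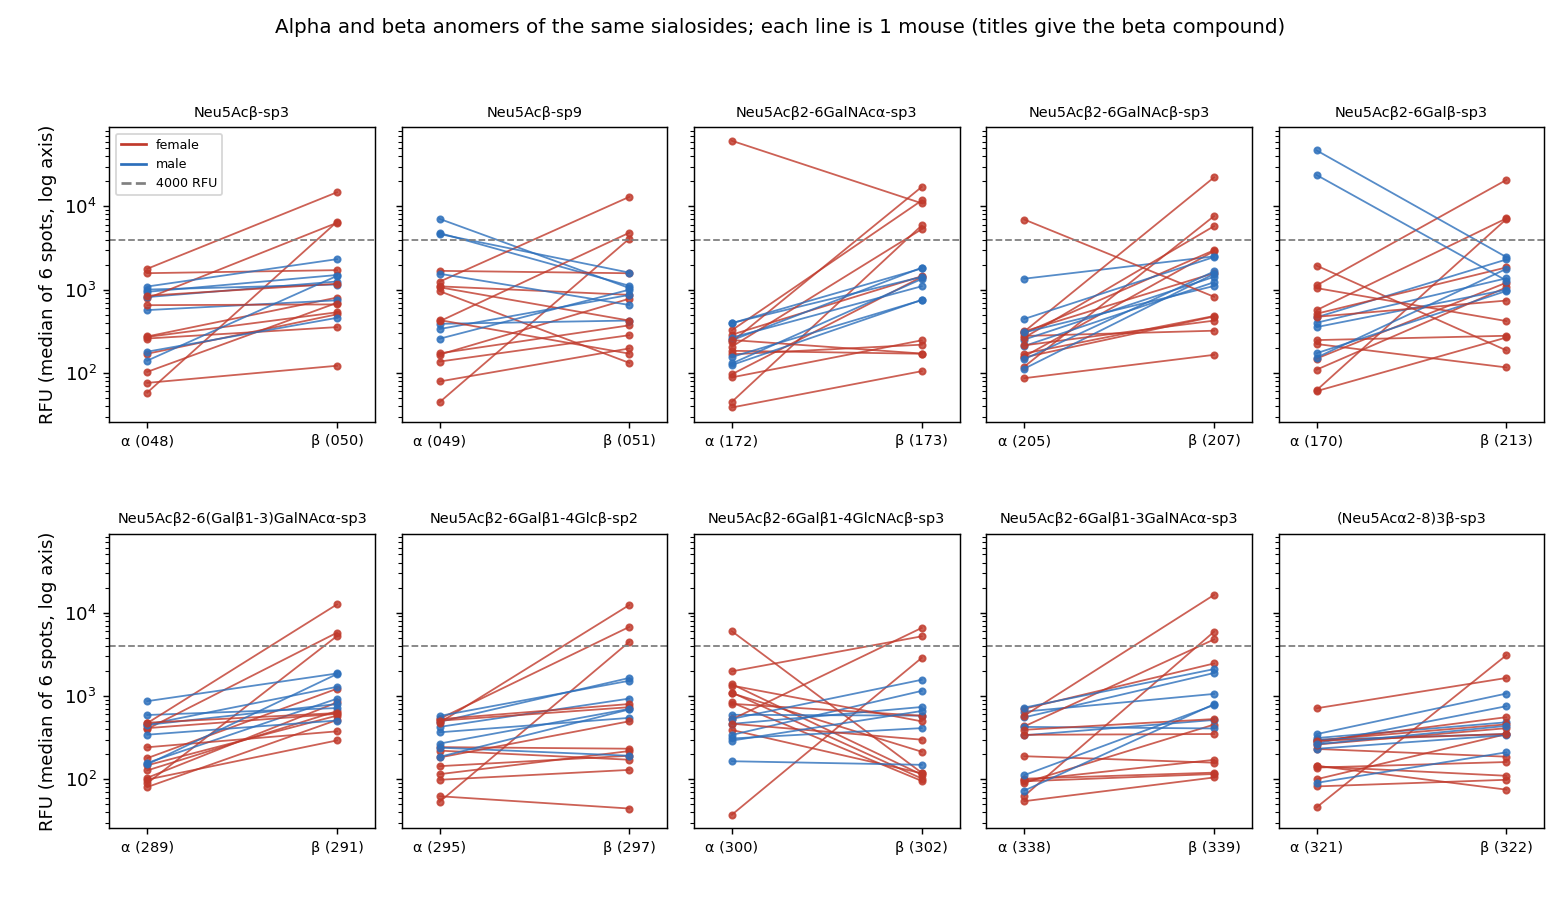
RFU (log axis) of the alpha and the beta compound of 10 pairs, with 1 line per mouse, females in red and males in blue, and 4000 RFU as a dashed line. Most lines rise from alpha to beta, with all 19 rising for compounds 050 and 291, while 1 or more mice fall steeply from a bright alpha compound for pairs 051, 173, 207, 213 and 302.

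With a beta sialic acid on the acceptor sugar the signal was above that of the unsialylated acceptor in 3 of 7 pairs and below it in 1. On the Thomsen-Friedenreich disaccharide Galβ1-3GalNAcα (compound 089), a carcinoma antigen, sialylation of GalNAc (291) gave a 4.04-fold brighter signal (2.02, interval 1.32 to 2.72, permutation test, adjusted p = 0.00018, 19 of 19 mice) and sialylation of Gal (339) a 2.72-fold brighter one (1.44, interval 0.55 to 2.36, adjusted p = 0.00567, 16 of 19 mice). Raised to buffer, these differences were 1.26 and 0.89 (adjusted p = 0.00151 and 0.0211), and with log2(RFU + 500) 1.12 and 0.93. Within the brighter array set they were 1.65 and 1.86 (adjusted p = 0.00639 for each). Within the dimmer set they were 2.42 and 0.98 (adjusted p = 0.0201 and 0.286). Compound 089 itself did not exceed 530 RFU in any mouse. The gain on GalNAcβ (207 against 006) was 1.91-fold (0.94, interval 0.12 to 1.80, adjusted p = 0.0427). It missed the threshold without any 1 of mice 17, 20, 44, 48, 53, 82, 87, 88, 90 and BALB/c-106, with differences of 0.65 to 0.97 and adjusted p of 0.0508 to 0.0843, and with signals raised to buffer (0.89, adjusted p = 0.0597). It passed in neither array set, at 0.67 in the brighter and 1.24 in the dimmer (adjusted p = 0.27 and 0.2).

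Galβ was the exception, bound in 11 of 19 mice without sialic acid (compound 003, median 6535 RFU) and in 3 with it (compound 213, median 1214 RFU). The sialylated form was dimmer in 14 of 19 mice, with a log2 difference of -2.15 (interval -3.57 to -0.72, permutation test, adjusted p = 0.013). The difference was -2.69 within the brighter array set and -1.55 within the dimmer (adjusted p = 0.0492 and 0.223). Mice 87, 90 and 17 had the opposite order, at 20806 against 2139, 7176 against 2265 and 7049 against 646 RFU. For Tn (173 against 005), lactose (297 against 092) and N-acetyllactosamine (302 against 097) the differences were 0.79 (interval -0.20 to 1.79), -0.10 (-0.94 to 0.77) and 0.39 (-0.34 to 1.13) and did not pass.

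Neu5Gc is the hydroxylated form of Neu5Ac that mice make and humans do not. β-SiaTn was 2.22-fold brighter with Neu5Ac than with Neu5Gc (173 against 175, log2 difference 1.15, interval 0.55 to 1.76, permutation test, adjusted p = 0.00231, 17 of 19 mice). For the free monosaccharide in alpha form the order was the reverse (048 against 052, -0.54, interval -0.80 to -0.29, adjusted p = 0.00168, 14 of 19 mice), at levels of at most 1836 RFU. Within the brighter array set both passed, at 1.19 and -0.55 (adjusted p = 0.0331 and 0.0251). Within the dimmer set neither did, at 1.10 and -0.53 (adjusted p = 0.129 and 0.13). For the beta monosaccharide (050 against 053, 0.59, interval -0.19 to 1.42) and the beta sialoside of N-acetyllactosamine (302 against 305, 0.03, -0.68 to 0.75) the difference did not pass over all mice. Within the dimmer array set the first of these was 1.36 (adjusted p = 0.0201), within the brighter one -0.09. In the females that bound Neu5Acβ-sp3 at 14778, 6355 and 6525 RFU, mice 87, 90 and 17, the Neu5Gcβ counterpart (compound 053) was at 1819, 2286 and 114 RFU, and its highest value over all mice was 3035 RFU, in female 65.

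Changes in the acceptor of a sialoside had no difference past the threshold in any of 5 pairs. Differences were 0.23 (interval -0.35 to 0.73) for GalNAcβ over GalNAcα (207 against 173), 0.33 (0.03 to 0.65) for GalNAcβ over Galβ (207 against 213), -0.24 (-1.08 to 0.58) for an added Galβ1-3 (291 against 173), -0.57 (-1.19 to 0.04) for sialic acid on Gal in place of GalNAc (339 against 291) and -0.21 (-0.54 to 0.13) for GD2 over GD3 (535 against 434). Their adjusted p ranged from 0.0544 to 0.61. The call turned on single mice in 4 of them. The first passed without mouse 65 (0.44, adjusted p = 0.0367) and the second without mouse 38, 90 or BALB/c-104 (0.36 to 0.39, adjusted p 0.0142 to 0.0432). The fourth passed without mouse 88 (-0.71, adjusted p = 0.0252) and the last without mouse 37 (-0.32, adjusted p = 0.0404). Within the dimmer array set alone the first difference was 0.73 (adjusted p = 0.0201) and the fourth -1.44 (adjusted p = 0.0352), while within the brighter set they were -0.23 and 0.21. The last passed within the brighter set (-0.58, adjusted p = 0.0308) and was 0.19 in the dimmer. The second passed after quantile normalization (0.39, adjusted p = 0.0352) and with log2(RFU + 500) (0.19, adjusted p = 0.031).

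Extension by α2-8-linked sialic acid went with a dimmer signal in 4 of 6 pairs and with a brighter one past the threshold in 0. The beta trimer (322) gave 0.329 times the signal of the beta monosaccharide (050), a log2 difference of -1.61 (interval -2.16 to -1.07, permutation test, adjusted p = 0.00018), and was dimmer in 19 of 19 mice. For disialic acid against Neu5Acα-sp3 (186 against 048) the difference was -1.09 (-1.54 to -0.64, adjusted p = 0.000566), for GD2 against the ganglioside sugar GM2 (535 against 442) -1.08 (-1.44 to -0.70, adjusted p = 0.0003) and for GD3 against 3'-sialyllactose (434 against 294) -0.33 (-0.57 to -0.10, adjusted p = 0.0088). Compounds 186 and 535 were at or below buffer in 19 of 19 mice. With signals below buffer raised to it, the 4 differences were -0.98, -0.24, -0.31 and -0.09 (adjusted p = 0.00054, 0.0139, 0.0115 and 0.105). Within the dimmer array set they were -1.46, -0.29, -0.98 and -0.30 and only the first passed (adjusted p = 0.0201, 0.22, 0.102 and 0.22), while within the brighter set all 4 passed, at -1.74, -1.81, -1.17 and -0.36. The trimer against the dimer (321 against 186, 0.13, interval -0.13 to 0.40) and the dimer with Neu5Acβ-sp9 against its monosaccharide (188 against 051, 0.08, -0.70 to 0.84) gave no difference past the threshold. In the latter pair mouse 87 was at 13014 RFU without and 792 RFU with the added sialic acid, and mouse 20 was at 866 and 4386 RFU.

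Neu5Acα-sp3 with a 9-NAc group gave 0.528 times the signal of the plain sugar (054 against 048, -0.92, interval -1.25 to -0.59, permutation test, adjusted p = 0.000288, dimmer in 16 of 19 mice). Compound 054 was at or below buffer in 19 of 19 mice, and raised to buffer the difference was -0.24 (adjusted p = 0.0139). It was -1.31 within the brighter array set and -0.48 within the dimmer (adjusted p = 0.00639 and 0.149). Of 3 spacer changes, Neu5Acβ on sp9 was dimmer than on sp3 (051 against 050, -0.48, interval -0.80 to -0.17, adjusted p = 0.00832), GD2 on sp2 was brighter than on sp4 (531 against 535, 0.71, 0.39 to 1.03, adjusted p = 0.00172), and Neu5Acα on sp9 against sp3 gave 0.60 (049 against 048, -0.05 to 1.26, adjusted p = 0.105). Both GD2 forms were at or below buffer in 13 mice, and with such signals raised to buffer the GD2 difference was 0.12 (adjusted p = 0.0602), while that of Neu5Acα passed (0.61, adjusted p = 0.0374). Within the brighter array set those of Neu5Acβ and GD2 passed, at -0.60 and 1.10 (adjusted p = 0.0251 and 0.00639). Within the dimmer set neither did, at -0.35 and 0.29 (adjusted p = 0.22 and 0.308). The series lists no configuration for the glucose of GD2 on sp4 (compound 535). Its pairs with compounds 531, 442 and 434 may thus each differ in more than the named change.

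**Figure D4:**
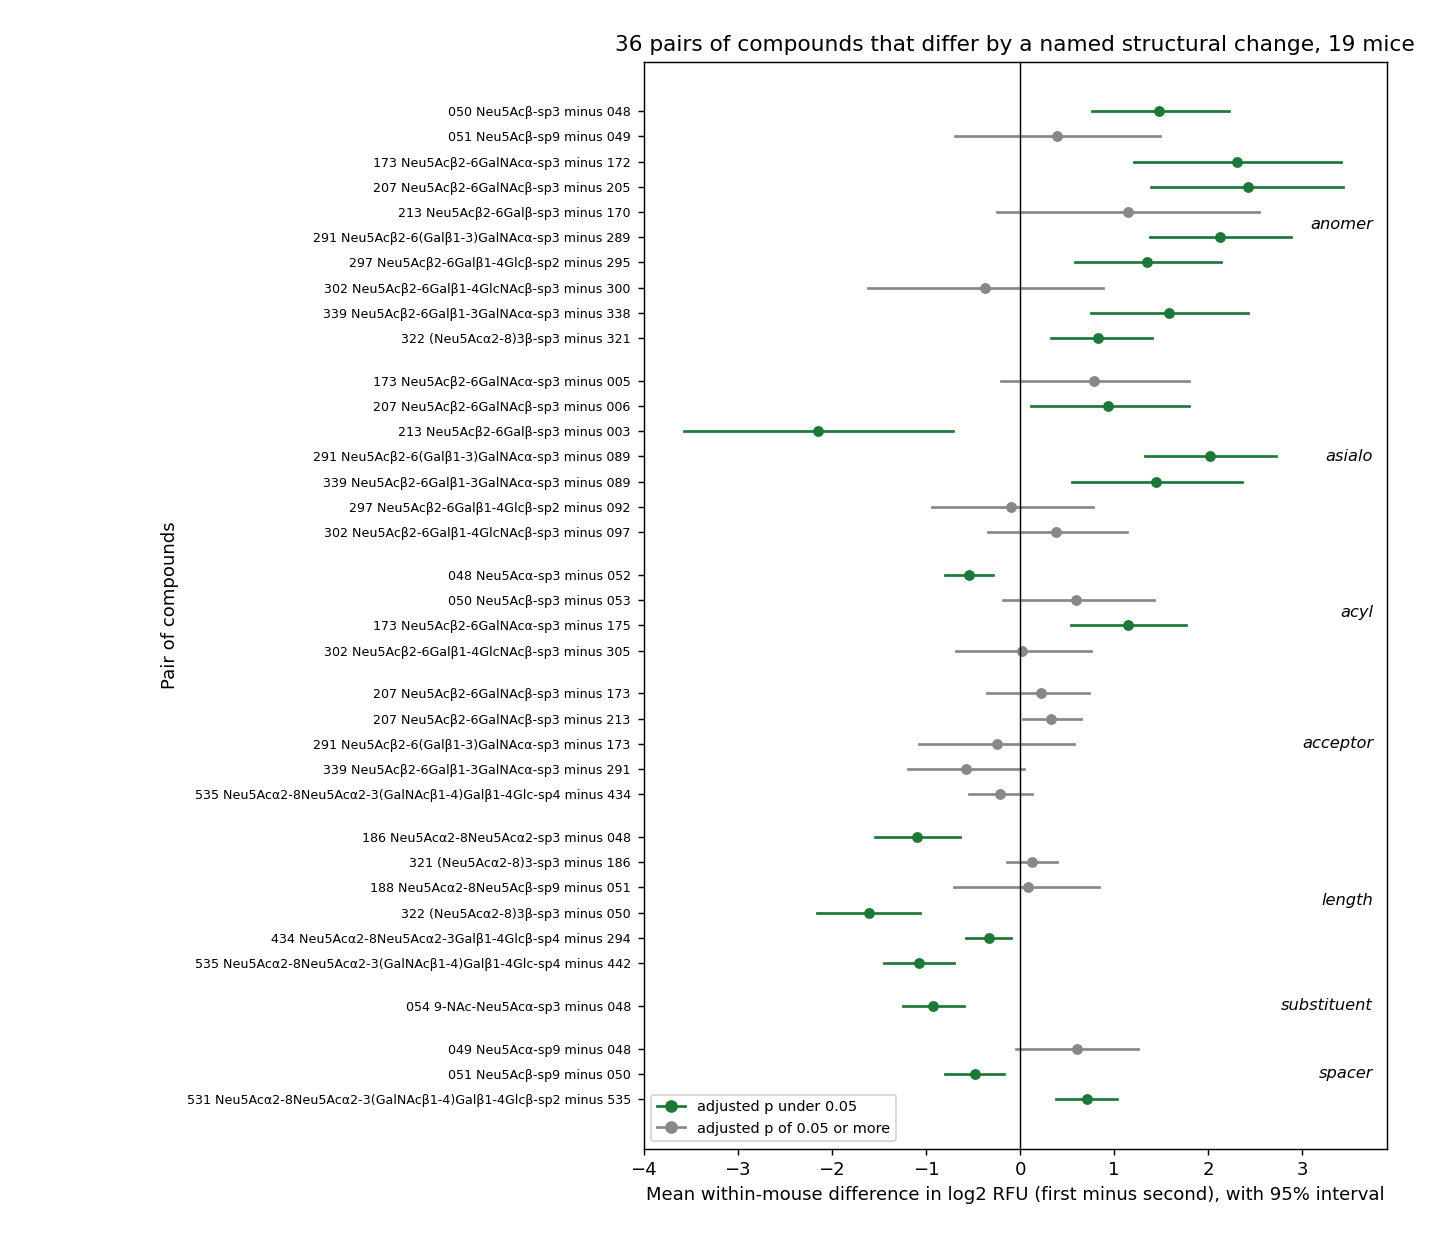
Mean within-mouse difference in log2 RFU (first minus second compound) of 36 pairs over 19 mice, with 95% intervals from the sign-flip test, in green where the adjusted p was under 0.05, and grouped by the kind of change: anomer (beta minus alpha), asialo (sialylated minus unsialylated), acyl (Neu5Ac minus Neu5Gc), acceptor, length (α2-8 extended minus shorter), substituent (9-NAc) and spacer. The anomer differences lie mostly to the right of 0 and the length differences mostly to its left, with 0.13 and 0.08 the positive ones. The difference of 213 and 003 lies farthest to the left, at -2.15.

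Between females and males, 0 of the 20 compounds differed by limma at an adjusted p under 0.05, and 1 had an unadjusted p under 0.05. Over all 419 compounds, 0.239% were higher in females and 1.43% higher in males. The log2 difference (female minus male) ran from -1.76 to 0.11 over the 20 with a median of -0.44, beside a median of -0.75 over all compounds. Quantile normalization moved these medians to 0.34 and 0.04, so the direction of the median follows the scaling. The compound with the small unadjusted p was Neu5Acα-sp9 (049), at -1.76 (95% interval -3.38 to -0.14, adjusted p = 0.268). Within the array sets its difference was -1.54 in the brighter and -0.42 in the dimmer (limma adjusted p = 0.89 and 0.924). Neu5Acβ-sp3 differed by 0.01 (-1.61 to 1.64) and β-SiaTn by 0.10 (-1.94 to 2.14), and such intervals leave room for several-fold differences either way. All 3 mice that bound 9 or more of the beta compounds were female, 3 of 12, and the differences of the 12 beta compounds ran from -0.56 to 0.11. The effect of a structural change differed between the sexes in 0 of 36 pairs (exact permutation test over 50388 assignments, smallest p = 0.0647, adjusted p = 0.921).

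As a description over the 19 mice, which share an array for all compounds, the compound outside this group with the pattern most like the median of the 12 beta compounds was Neu5Acβ2-6(Fucα1-2)Galβ1-4GlcNAcβ (compound 440), the fucosylated form of compound 302 (Spearman's rho 0.83, each array's median level removed). It was bound by mice 87, 17 and 90, at 19534, 7132 and 5095 RFU, and the next was female 44 at 3584 RFU. Its alpha anomer (compound 441) was bound by mouse 42 alone, at 6394 RFU, the mouse that also bound compound 300. The next in rank were 3 lactosamines with a sulfate on position 4 of galactose, compounds 159, 420 and 158 (rho 0.69, 0.65 and 0.62), and N-acetyllactosamine on spacer sp8, compound 099 (0.67). Without removal of the array median rho was 0.85 for compound 440, 0.38 for 159, 0.67 for 420, 0.41 for 158 and 0.64 for 099. On compound 159, the highest value was that of female 38, at 17784 RFU, followed by mice 87 and 90 at 6788 and 3012 RFU, while mouse 17 was at 73.5 RFU. Compound 158 was also highest in female 38, at 43346 RFU, and mouse 17 was at 143.5 RFU on 158 and 154 RFU on 420. Compound 099 was highest in female 88, at 4027.5 RFU, with mice 87, 90 and 17 at 376.5, 320 and 13 RFU. Within the beta compounds, rho to the median of the other 11 was 0.94 for Neu5Acβ-sp9, 0.93 for Neu5Acβ2-6GalNAcβ and lowest for compound 188, at 0.27.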

How the data were processed

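Each serum was read on 1 array in 1 colour (Cy5). Spots were quantified by the authors in ScanArray Express 4.00. The mean pixel intensity per spot, deposited on a linear scale, was used together with the deposited local background and percent of saturated pixels. The deposited table of the series gives structures by compound number, and its intensity column, labelled as a median over mice, was not used. For 1 compound the numbers of arrays and table differ, and it is not among the 20.

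From these values, RFU were taken as the median of 6 spots, with background left in and no scaling between arrays, as the study applies 1 threshold in RFU. All spots were kept, including the 3.83 to 51.3% per array flagged as not found. For log2, RFU under 100 became 100. Members, lists and the 36 pairs were chosen with earlier results of these data known. Pairs were tested with sign flips in numpy 2.4.6, with 1e-05 the smallest p that 100000 flips can give and intervals from inverting the test, sexes and buffer with limma 3.58.1 in R 4.3.3 (mean-dependent prior variance) across all 419 compounds, and pairs between sexes with exact permutation tests. Adjustment followed Benjamini and Hochberg, and intervals of shares are exact binomial at 95% in scipy 1.17.1. Every one of the 20 compounds is named, with the partners of its pairs and the 5 other compounds most like the beta compounds; compounds 441 and 187 were added after their values were seen. The steps were tested on simulated data. Alternatives were the mean of the spots, background subtraction, quantile normalization, other thresholds, log2(RFU + 500), buffer as a lower limit, the 2 array sets, a compound filter at 1000 RFU, another reference, both or neither identical array, and each mouse left out.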

Additional observations from a re-analysis of the deposited data

Results flagged for a closer look

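Among the 7 males, the value of trisialic acid (compound 321) in mouse 56 lay apart from the rest, at 90.5 RFU, with a gap to the nearest male of 0.675 of the whole range on the log2 scale (RFU under 100 set to 100). The 20 compounds were screened in this way, in which chance marks about 1 in 20 groups. The array of mouse 56 belongs to the dimmer set. The 12 females were not screened in this way.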

How the results depend on the processing

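The number of compounds bound in at least 1 mouse (12), pairs past the threshold (20), anomer pairs with the beta compound brighter (7), compounds past the threshold between sexes (0) and pairs that differ between sexes (0) stayed within 1.5 times of these counts under every alternative run for them, apart from the dimmer array set, where 9 pairs and 4 anomer pairs passed with 9 mice. With thresholds of 2000 and 8000 RFU, 13 and 9 of the 20 were bound, beside 72.8% and 38.7% of all 419 compounds. Leaving out each mouse in turn gave 12 bound compounds throughout, 19 to 21 pairs and 7 anomer pairs. With the identical arrays both counted or both left out, 21 and 19 pairs passed. Raising signals to buffer left 17 pairs and 6 anomer pairs and made most differences smaller.

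The comparison with buffer depended on the summary of the spots, which was changed for compounds and buffer together. With means in place of medians, the buffer level of an array rose 1.37- to 32.7-fold, and 0 compounds were brighter and 18 dimmer than buffer. The differences then reversed for compounds 049 (-1.92), 050 (-1.19), 051 (-1.73), 173 (-1.12), 188 (-1.70), 207 (-0.80), 213 (-1.08), 291 (-1.37), 297 (-1.89), 302 (-2.36), 339 (-1.81) and 340 (-0.78). Against trehalose-ethanolamine, 0 were dimmer, and GD3 (compound 434) turned to 0.0903 (limma adjusted p = 0.794). Leaving out 1 mouse gave 6 to 8 brighter and 5 to 6 dimmer compounds. Labels give the sexes no shared replicate numbers. No paired analysis was possible because sexes are different mice; pairs of compounds were compared within mice throughout. Signals near buffer limit the comparison of dim compounds.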

Other observations

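The series lists compound 187 as a sulfated lactose, whereas its neighbours 186 and 188 are disialic acids. The median of compound 187 over the 19 mice was 272 RFU, its highest value was 933 RFU in a male, and no mouse bound it.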
